A study of Mus musculus with 6 samples.

Results

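Of 15285 autosomal CpG-dense windows measured in mouse neocortex at postnatal day 5, 200 (1.31%) had a mean methylation level between 25% and 75% in wild-type (WT) samples and are described here. A window is a fixed stretch of 500 bp that holds at least 3 CpGs with more than 15 listed CpGs within 250 bp on either side, and each counted CpG had at least 10 reads in every library. The WT levels chose the windows, so these levels are given as a description and nothing is tested with them. DNA was profiled by reduced representation bisulfite sequencing, in which the enzyme MspI cuts at CCGG sites and bisulfite converts unmethylated cytosines before sequencing. The study set 3 samples labelled Chd8+/-, which carry 1 affected copy of the chromatin remodeller gene Chd8, against 3 labelled WT, with the same age and tissue in both groups. How the Chd8 allele was made, the strain and the sex are not given in the sources used here, and nothing says that each sample was a different animal. The p-values therefore describe only the spread among these 6 samples, which may be technical.

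CpG islands are stretches where CpGs stay frequent because they are usually kept free of methylation in the germline. Most islands in a tissue are therefore either unmethylated, as at active or poised promoters, or fully methylated, as at genes reserved for germ cells. A level near the middle can arise where 1 parental copy is methylated and the other is not, which is how imprinting control regions mark the parent of origin, where only part of the cells carry methylation, or where copies of a repeat differ. A mean level per window cannot tell these apart.

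Promoter sequences of 4 genes from the imprinted and germline lists are shown first. They do not stand for all kinds of locus found, since a placed promoter overlapped only 20 of the 200 windows. Mcts2 and Plagl1 are imprinted genes, and Hormad2 and Ddx4 act in germ cells. Each is the RefSeq sequence of 300 bases around an annotated start (GRCm38.p6, in the direction of the gene), placed on the mm39 positions of the data by the spacing of its CpGs. Capitals mark the CpGs that entered the window levels, and all other bases are in lower case.
Mcts2 (plus strand, placed at chr2:152528818-152529117): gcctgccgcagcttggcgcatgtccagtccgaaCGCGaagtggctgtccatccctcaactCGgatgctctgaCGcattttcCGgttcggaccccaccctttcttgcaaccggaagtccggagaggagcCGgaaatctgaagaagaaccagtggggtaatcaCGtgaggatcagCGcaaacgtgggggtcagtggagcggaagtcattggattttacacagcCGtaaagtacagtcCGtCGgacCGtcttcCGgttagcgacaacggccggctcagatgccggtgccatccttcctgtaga
Plagl1 (plus strand, placed at chr10:12966326-12966625): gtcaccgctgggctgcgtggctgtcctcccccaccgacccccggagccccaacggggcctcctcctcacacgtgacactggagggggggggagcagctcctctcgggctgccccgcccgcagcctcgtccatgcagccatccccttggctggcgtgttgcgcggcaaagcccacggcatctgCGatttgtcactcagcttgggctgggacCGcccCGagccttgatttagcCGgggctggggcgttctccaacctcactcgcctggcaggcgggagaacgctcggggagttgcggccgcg
Hormad2 (minus strand, placed at chr11:4391033-4391332): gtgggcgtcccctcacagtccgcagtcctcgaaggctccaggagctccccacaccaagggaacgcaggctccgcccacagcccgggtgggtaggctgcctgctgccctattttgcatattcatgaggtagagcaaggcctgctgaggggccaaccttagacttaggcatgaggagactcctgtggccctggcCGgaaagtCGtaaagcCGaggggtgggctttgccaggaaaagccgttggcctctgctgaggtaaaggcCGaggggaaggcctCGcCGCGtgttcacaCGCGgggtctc
Ddx4 (minus strand, placed at chr13:112788795-112789094): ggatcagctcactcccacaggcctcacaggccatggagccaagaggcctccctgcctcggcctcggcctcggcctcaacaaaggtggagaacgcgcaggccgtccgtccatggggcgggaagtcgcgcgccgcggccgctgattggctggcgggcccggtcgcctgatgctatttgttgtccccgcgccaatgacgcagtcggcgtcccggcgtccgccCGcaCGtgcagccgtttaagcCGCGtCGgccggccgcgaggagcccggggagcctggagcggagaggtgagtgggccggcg
The level rests on 13 of the 25 CpGs of the Mcts2 sequence, 4 of 26 at Plagl1, 9 of 16 at Hormad2 and 5 of 38 at Ddx4. More were listed in at least 1 library (16, 18, 11 and 31), but a CpG entered only with 10 reads in all 6 libraries and inside one of the 200 windows. The counted CpGs of the Plagl1 sequence lay close together in WT, between 57.5% and 63.2%. Those of the Hormad2 sequence ran from 9.01% to 98.4% in WT, so its middle level was a mean of very unlike CpGs. Counted CpGs ranged from 23.7% to 66.4% at Mcts2 and from 45.2% to 80.8% at Ddx4 in WT.

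The 15285 CpG-dense windows fell into a large unmethylated class and a small methylated one, with few windows in between. There were 14286 windows under 5% in WT and 263 windows at 90% or more, against 75 at 25 to 40%, 85 at 40 to 60% and 40 at 60 to 75%. The 200 windows in the middle held 1683 counted CpGs, lay on all 19 autosomes and formed 167 loci when windows less than 2000 bp apart were joined. Of these loci 148 were single windows, 15 had 2 windows, 3 had 3 windows and 1, on chromosome 17, had 13. A window held from 3 to 66 counted CpGs with a median of 6, and 35 windows held only 3. The median depth was 36.8 reads per CpG, close to the 37.5 reads of all CpG-dense windows.

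**Figure D1:**
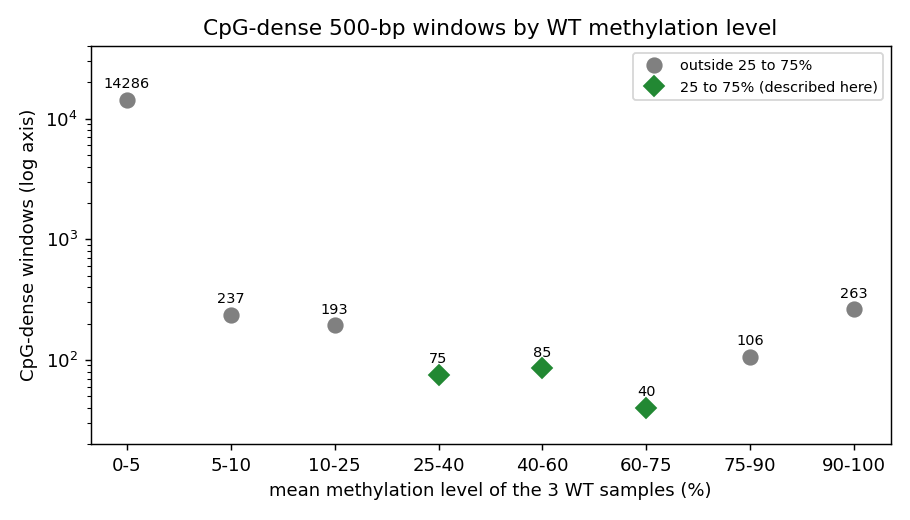
Number of CpG-dense windows (log axis) in each class of mean methylation level over the 3 WT samples (%). Diamonds mark the classes between 25% and 75%, which hold 75, 85 and 40 windows, and circles the classes outside, led by 14286 windows under 5%.

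The 6 libraries listed between 953724 and 1400708 CpG cytosines, with a median coverage of 20 to 24 reads, and every Chd8+/- library had less summed coverage than every WT library. The replicate 3 libraries stood apart, with 2.58% (WT) and 2.56% (Chd8+/-) of coverage on chromosome X against 1.18% to 1.21% in the other 4. In the 200 windows the median reads per CpG were 41.2, 47.6 and 36.7 in WT 1 to 3 and 36.7, 28.4 and 31.9 in Chd8+/- 1 to 3. Counting error alone is therefore larger in the Chd8+/- samples.

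The mean level over the 200 windows was close in the 2 genotypes. It was 46.0%, 46.1% and 49.0% in the WT samples and 47.6%, 49.7% and 49.5% in the Chd8+/- samples. The groups overlapped, since WT 3 lay above Chd8+/- 1. The group means were 47.0% ± 1.72 and 48.9% ± 1.17 (SD, n = 3), a difference of 1.89 percentage points with a standard error of 1.20. Over all CpG-dense windows the means were 3.71% ± 0.0206 and 3.804% ± 0.0426 (SD, n = 3). That is a difference of 0.0897 points with a standard error of 0.0273. There the groups did not overlap, with 3.691% to 3.728% in WT and 3.755% to 3.831% in Chd8+/-. In the 200 windows, same-numbered samples, which were not taken as pairs, differed by 1.61, 3.56 and 0.498 points for replicates 1, 2 and 3. Replicates 1 and 2, alike in their share of chromosome X, together gave 2.58 points. When the windows were chosen on 2 WT samples and the Chd8+/- mean was set against the WT sample not used, the difference was 3.53, 3.06 or 1.18 points, depending on the sample set aside (WT 1, 2 or 3).

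The Chd8+/- mean was the higher one in 115 of the 200 windows (57.5%), against 52.7% of the 67181 windows of the genome-wide fit. It was higher in 47.2% of the CpG-dense windows in that fit, and in 55.0% of the 369 CpG-dense windows over 75% in WT. The median difference was 2.43 points in the 200 windows and 0.130 points over all windows of the fit. In edgeR's quasi-likelihood test on methylated and unmethylated reads, with Benjamini-Hochberg adjustment over the 67181 windows, 0 of the 200 windows passed an adjusted p under 0.05. The background was 0% of all windows, and the lowest adjusted p among the 200 was 0.990. At an unadjusted p under 0.05, 3 windows were called, all higher in Chd8+/-, where the background was 3.49% of all windows and 6% of CpG-dense windows. The limma test called 6 windows at that unadjusted level against a background of 5.2% and 0 after adjustment (lowest adjusted p 0.730). All 3 Chd8+/- samples lay above all 3 WT samples in 14 windows, against 4.95% of all windows, and below them in 5 windows, against 3.81%.

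**Figure D2:**
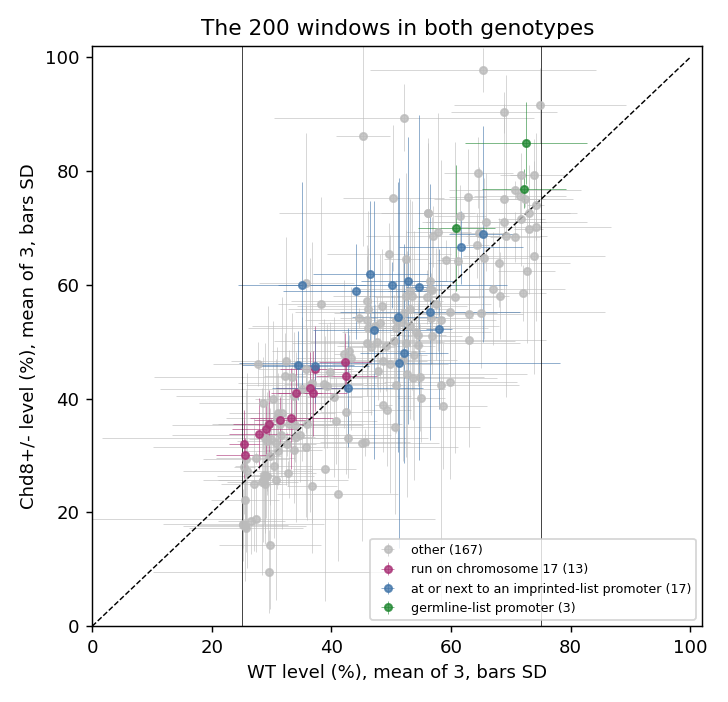
Mean methylation level (%) of each of the 200 windows in WT (horizontal) and Chd8+/- (vertical), with bars of 1 SD over 3 samples. Vertical lines mark the range that chose the windows, and most points lie near the diagonal of equal levels.

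Most windows kept a middle level in Chd8+/- neocortex. The Chd8+/- mean was also between 25% and 75% in 171 of the 200 windows, under 25% in 13 and over 75% in 16. Chosen on the Chd8+/- mean instead, 216 CpG-dense windows would fall in the range, the same 171 among them. All 6 samples were in the range in 89 windows. All 6 samples lay between 40% and 60% in 7 windows and between 35% and 65% in 26. Of the 85 windows with a WT mean of 40 to 60%, 61 also had a Chd8+/- mean in that band.

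None of the 7 windows between 40% and 60% in every sample had a placed promoter inside. They are named here after their values were seen. The window chr15:88952001-88952500 had 57.0%, 49.8% and 40.7% in WT and 41.9%, 57.6% and 48.5% in Chd8+/-, and its 7 CpGs were alike in WT, from 38.8% to 62.2%. At chr4:154505001-154505500 the WT samples were at 41.1%, 46.7% and 45.8% and the Chd8+/- samples at 52.7%, 56.0% and 53.7%, so that the groups did not overlap (edgeR adjusted p = 0.990). The others were chr6:48415001-48415500, 6524 bp from the start of the zinc finger gene Zfp467, chr6:54920501-54921000, chr7:34452501-34453000, chr14:57779501-57780000 and chr7:105411001-105411500. The last one lay 17456 bp from the start of Taf10, a subunit of the general transcription factor TFIID. Single CpGs within the 7 windows reached down to 16.1% and up to 87.3%, both at chr6:48415001-48415500. A steady window mean thus did not require steady CpGs.

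Samples of the same genotype often differed widely in a window. The range over the 6 samples had a median of 24.6 points, from 6.24 to 79.0. It exceeded 50 points in 11 windows and stayed under 20 in 71 and under 10 in 9. The SD over 3 samples had a median of 7.35 points in WT (0.709 to 29.8) and 8.65 in Chd8+/- (1.11 to 39.5). It was larger in Chd8+/- in 127 windows (63.5%). That share was 55.8% in CpG-dense windows over 75% in WT. It was 44.3% of all CpG-dense windows, of which 96.3% were under 25% in WT, with little spread. The counting SD is the true SD of a level that read counts alone would give. Taken as if a window held only the reads of 1 CpG, its median was 7.53 points in WT and 8.32 in Chd8+/-. With all reads of the window counted as independent, the medians were 3.07 and 3.41. An SD over 3 samples falls below the true SD more often than not, so the observed medians cannot be compared with these directly. The observed SD exceeded the first counting SD of its window in 111 windows in WT and 126 in Chd8+/-. It exceeded the second in 174 and 182. The counting SD was larger in the shallower Chd8+/- libraries. Its part in the wider Chd8+/- spread was not tested.

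The spread fell with depth. In the 61 windows under 30 reads per CpG the median SD was 10.1 points in WT and 11.8 in Chd8+/-. In the 91 windows at 30 to 60 reads it was 7.51 and 8.595, and in 32 windows above that, without the very deep ones, 5.48 and 8.10. The 16 windows over 10 times the median depth, 13 of them in the chromosome 17 run, had 4.94 and 5.97. Their median counting SD from the reads of 1 CpG was only 1.02 and 1.19. The means of the genotypes differed by more than 10 points in 46 windows.

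**Figure D3:**
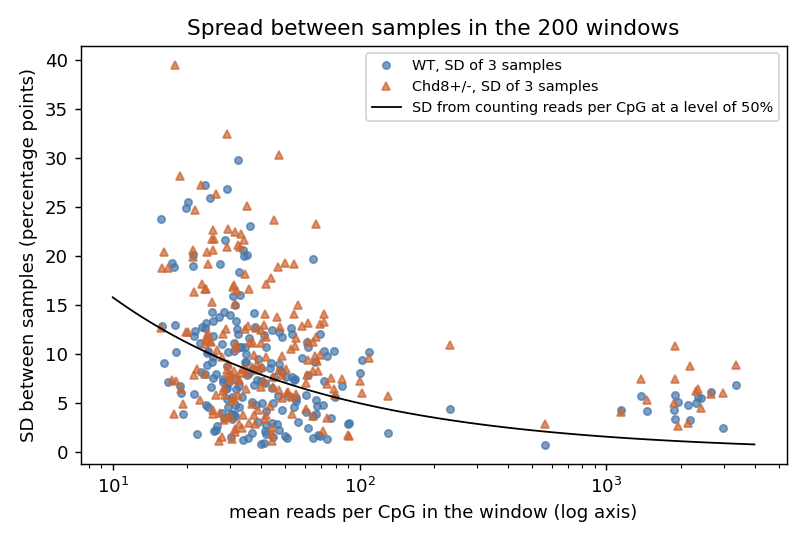
SD over 3 samples (percentage points) of each of the 200 windows against its mean reads per CpG (log axis), with WT as circles and Chd8+/- as triangles. The line is the SD that counting the reads of 1 CpG would give at a level of 50%, and on the right the 16 very deep windows lie above it in both genotypes, except chr16:57211501-57212000 in WT (0.709 points).

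The widest Chd8+/- spread was at chr1:36308501-36309000, with 83.2%, 40% and 4.21% against 72.0%, 56.7% and 46.3% in WT. It rested on 5 CpGs and 58 to 120 reads per library. The next was chr7:143013501-143014000, described with the imprinted loci, and then the second Mcts2 window. The smallest Chd8+/- SDs were 1.11 points at chr2:73267501-73268000 (70.4% to 72.3%), 1.11 at chr10:80140501-80141000 (28.7% to 30.8%) and 1.39 at chr5:110526001-110526500 (73.6% to 76.3%). At the first of these the WT samples ranged from 56.3% to 83.6%, so a small SD in 1 genotype did not carry over to the other.

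Within a window the CpGs were often unequal. In the 135 windows with 5 or more CpGs, the SD over CpGs of the WT means had a median of 16.6 points, from 2.64 at the second Mcts2 window to 35.1 at chr13:55153501-55154000, whose CpGs ran from 6.55% to 88.1%. Every CpG was between 25% and 75% in 27 of these windows, and the CpGs spanned over 50 points in 59. Among the 22 windows that stayed between 35% and 65% in all 6 samples the median SD over CpGs was 18.4 points, and in the other 113 it was 16.4. An adjacent window, CpG-dense or not, was measured for 110 windows. Of these, 67 had a neighbour also at 25 to 75%, 30 had one under 25% and 18 one over 75%, and 0 lay between a low and a high neighbour. Most of the 110 had a measured neighbour on a single side only, so a place between a low and a high neighbour could seldom be seen.

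Few of the 200 windows lay at the start of a gene. A placed promoter overlapped 20 windows (10%), against 5944 of all CpG-dense windows (38.9%). A further 30 had a placed start within 5 kb, and 62 were over 50 kb from any. Since 11130 of the 32851 RefSeq promoter sequences could be placed, starts that were not placed may lie closer. Of 5635 genes with a placed promoter over a CpG-dense window, 19 (0.337%) had it over one of the 200. A counted CpG lay inside the promoter sequence itself at 15 of the 19, and at Nnat, Parp12, Gm40847 and Gm16617 the window level comes only from CpGs beside it. Apart from the imprinted and germline genes given next, these were Papolb, Rbmxl2, Sox30, Parp12, Amn, Fignl2, 1700020D05Rik, the noncoding Hymai and the predicted genes Gm46055, Gm40847 and Gm16617.

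Imprinted genes formed the first named group. Of 54 listed genes 15 had a placed promoter over a CpG-dense window, and 5 (33.3%) had it over one of the 200: Mcts2, Nnat, Plagl1, Zrsr1 and Commd1. The other 10, Ascl2, Copg2, Dio3, Gnas, Grb10, Igf2, Igf2r, Jade1, Ube3a and Zdbf2, were low there, from 0% to 7.19% in WT. The list was drawn up with earlier results of these data known, so the share is a description. None of the windows at these genes passed the adjusted edgeR test (adjusted p 0.990 to 1.00).

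Mcts2 is a retrogene inside an intron of H13 that is expressed from the paternal copy, and 2 neighbouring windows covered its start. The upstream window, chr2:152528501-152529000, had 29.9%, 51.0% and 51.4% in WT and 62.2%, 49.4% and 65.1% in Chd8+/-. WT 1 was the low sample and the groups overlapped, with means of 44.1% ± 12.3 and 58.9% ± 8.38 (SD, n = 3). The capital CpGs of the sequence above fall in this window and the next, and 630 to 1014 reads per library stand behind this one. The next window, chr2:152529001-152529500, had 52.3%, 55.2% and 56.7% in WT and 30.8%, 56.7% and 91.3% in Chd8+/-. Its 5 CpGs were within 51.3% to 58.1% in WT, while its Chd8+/- SD of 30.4 points was the third largest of all 200 windows.

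Nnat, which encodes neuronatin, a small membrane protein of neurons, is a retrogene in the Blcap locus and also paternally expressed. Its window chr2:157402001-157402500 had 53.7%, 42.5% and 57.1% in WT and 29.7%, 56.4% and 77.0% in Chd8+/-, so the WT samples lay inside the Chd8+/- range. Plagl1 encodes a zinc finger transcription factor and shares its start with the noncoding Hymai. Its window chr10:12966501-12967000 had 41.1%, 71.2% and 57.0% in WT and 40.6%, 81.1% and 44.0% in Chd8+/-. The replicate 2 samples were the high ones in both groups, and the means were 56.4% ± 15.04 and 55.2% ± 22.5 (SD, n = 3).

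Zrsr1, a retrogene related to splicing factors, lies in an intron of Commd1. The window at its start, chr11:22922001-22922500, had 71.5%, 64.4% and 60.3% in WT and 61.0%, 90.6% and 55.3% in Chd8+/-. The neighbouring window chr11:22922501-22923000 had 36.4%, 55.6% and 47.6% in WT and 75.3%, 49.7% and 60.9% in Chd8+/-. Chd8+/- 2 was the highest sample in the first window and the lowest Chd8+/- sample in the second, next to it, so the order of the samples changed within the locus.

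Grb10 encodes an adaptor of the insulin receptor that is expressed from different parental copies in brain and other tissues. The windows at its placed start were low in WT (1.05% and 0%), and the middle levels lay 10920 bp and 11420 bp from it, downstream. There, chr11:11975501-11976000 had 47.2%, 36.9% and 57.4% in WT and 26.4%, 69.6% and 60.3% in Chd8+/-. The adjoining chr11:11976001-11976500 had 45.4%, 52.1% and 61.1% in WT and 42.3%, 89.4% and 50.5% in Chd8+/-. Chd8+/- 2 was the highest of all samples in both windows, and the WT samples lay within the Chd8+/- range.

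Gnas, which encodes the stimulatory G protein alpha subunit and has several promoters with different imprints, held 7 of the 200 windows in 3 loci. The last placed Gnas start was unmethylated (0.570% in WT), while windows 799 bp and 1299 bp upstream of it had WT means of 34.5% ± 9.37 and 42.7% ± 12.7 and Chd8+/- means of 45.8% ± 6.07 and 41.9% ± 10.5 (SD, n = 3). In the nearer one, chr2:174170501-174171000, all 7 CpGs were alike in WT, between 31.7% and 39.8%. Just downstream of the first placed Gnas start, chr2:174126501-174127000 had 30.03%, 27.7% and 47.3% in WT and 71.2%, 38.9% and 69.7% in Chd8+/-, the largest difference at an imprinted gene at 24.9 points. Chd8+/- 2 lay below WT 3 there, so the groups overlapped, and the adjoining window had the higher mean in WT (52.1% ± 7.33 against 48.0% ± 19.2, SD, n = 3). Between the starts, 3 windows at chr2:174139501-174142000 had WT means of 58.0%, 50.2% and 61.6% and Chd8+/- means of 52.2%, 60% and 66.6%.

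Further windows lay between placed genes that flank imprinted ones in RefSeq order, with no start placed on them. At chr7:143013501-143014000, between Tssc4 and Phlda2, where RefSeq lists Kcnq1, Kcnq1ot1 and Cdkn1c, the samples were at 22.1%, 57.1% and 74.8% in WT and 16.0%, 42.3% and 80.5% in Chd8+/-. Replicates 1 and 3 each had similar levels in the 2 genotypes and lay far apart from each other, on 66 to 253 reads per library. The replicate 2 samples differed more (57.1% and 42.3%). The window chr6:58883501-58884000, between Abcg2 and Ccser1 where Herc3 and Nap1l5 are listed among 26 genes, had 57.6%, 64.0% and 43.0% in WT and 39.6%, 54.6% and 37.2% in Chd8+/-. At chr7:62027001-62027500, 42401 bp from the start of Mkrn3, the means were 37.3% ± 9.02 in WT and 45.7% ± 6.36 in Chd8+/- (SD, n = 3). Few promoters of chromosome 15 were in the table used. Its windows chr15:72681501-72682000 and chr15:76551001-76551500 lie between Gm41318 and Myh9, whose placed starts are 28613840 bp apart. Kcnk9, Peg13 and Trappc9 are among the 452 genes listed there, so nearness to an imprinted gene is not shown for either window. The first had 43.8%, 50.9% and 68.0% in WT and 50.8%, 54.5% and 49.8% in Chd8+/-, and all 11 of its CpGs were between 30.9% and 74.8% in WT. The second had 53.4%, 56.7% and 49.3% in WT and 67.0%, 51.1% and 58.7% in Chd8+/-. The groups overlapped in both windows, which are named after their values were seen.

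**Figure D4:**
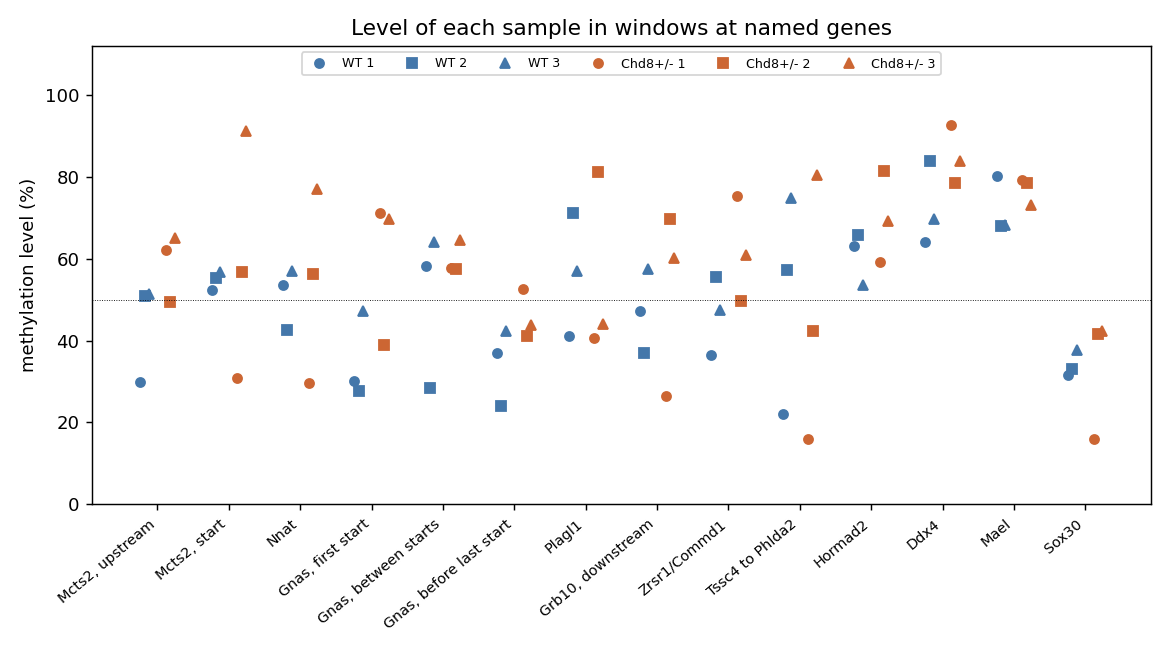
Methylation level (%) of each sample in windows at or near named genes. Circles, squares and triangles are replicates 1, 2 and 3, WT in blue and Chd8+/- in orange, and the thin line marks 50%. At most imprinted loci the 6 samples scatter on both sides of 50%, and at Hormad2, Ddx4 and Mael all 6 lie above it.

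Germline genes are typically methylated in somatic tissue, and those with a middle level lay near its upper end. Of 44 listed genes 9 had a placed promoter over a CpG-dense window. Of these, 3 were among the 200 (33.3%), 4 were over 75% (Asz1, Slc25a31, Tdrd1 and Tex101) and 2 under 25% (Smc1b and Tdrd7). This list, too, was drawn up with earlier results known. Ddx4, an RNA helicase of germ cells, had 64.0%, 83.8% and 69.6% in WT and 92.7%, 78.4% and 83.8% in Chd8+/-. Hormad2, a protein of meiotic chromosome axes, had 63.1%, 65.9% and 53.7% in WT and 59.3%, 81.4% and 69.3% in Chd8+/-. Mael, which takes part in silencing of transposons by piRNAs, had 80.3%, 68.0% and 68.2% in WT and 79.2%, 78.5% and 73.1% in Chd8+/-. The groups overlapped at each of these genes, and the edgeR adjusted p was 0.990 for Hormad2 and Ddx4 and 1.00 for Mael.

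Genes with testis functions outside that list also had promoters over the 200 windows, and are named after their values were seen. Papolb, a poly(A) polymerase of the testis, had 27.1%, 38.5% and 36.5% in WT and 29.1%, 41.9% and 34.9% in Chd8+/-. Sox30, a transcription factor of spermatids and the single member among 61 listed developmental and homeobox genes over CpG-dense windows, had 31.7%, 33.1% and 37.6% in WT and 16.0%, 41.7% and 42.2% in Chd8+/-. Levels at both were lower than at Ddx4, Hormad2 and Mael. The clustered protocadherin genes had 58 members in RefSeq and 0 with a placed promoter, so their windows could not be named.

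The 3 windows with the smallest p were all higher in Chd8+/-. At chr12:112877001-112877500 the WT samples were at 75%, 49.5% and 31.8% and the Chd8+/- samples at 96.0%, 87.6% and 84.6% (edgeR unadjusted p = 0.0195), on 3 CpGs and 48 to 123 reads per library. At chr7:106808001-106808500, at the start of Rbmxl2, an RNA-binding protein of male germ cells, the samples were at 76.9%, 43.5% and 75.4% in WT and 100%, 100% and 93.3% in Chd8+/- (edgeR unadjusted p = 0.0232), on 30 to 89 reads. The adjoining Rbmxl2 window, with 114 to 374 reads, had 59.4%, 65.3% and 63.6% against 83.7%, 75.9% and 67.0%, and neither window's groups overlapped. At chr11:105056001-105056500 the samples were at 62.6%, 79.0% and 65.01% in WT and 88.0%, 88.6% and 94.5% in Chd8+/- (edgeR unadjusted p = 0.0267), on 5 CpGs and 120 to 177 reads. The adjusted p was 0.990 at all 3.

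Among windows lower in Chd8+/-, the smallest p was 0.0994 in the edgeR test, unadjusted, at chr2:151948001-151948500. It lay 557 bp from the start of Srxn1, an enzyme that repairs oxidised peroxiredoxins, with 38.2%, 21.1% and 29.9% in WT and 8.93%, 6.67% and 27.0% in Chd8+/-, so the groups overlapped. At chr5:143240501-143241000, near Zfp316, the WT samples had 51.8%, 47.7% and 37.3% and the Chd8+/- samples 35%, 31.1% and 30.8%, without overlap. Its neighbouring windows in the same locus differed by 7.52 and 4.19 points, also with the lower mean in Chd8+/-. The locus at chr12:80804001-80805500 turned along its length. Its first window had means of 71.7% in WT and 79.4% in Chd8+/-, the second 55.9% and 57.8%, and the last 41.1% and 23.3%, so the means along the locus spanned a wider range in Chd8+/-.

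Across the 200 windows the difference ran from -19.98 to 40.8 points, with the middle 50% between -3.75 and 5.93. It exceeded 20 points in 7 windows, all of them higher in Chd8+/-. In the other direction, chr5:24690001-24690500 (-19.98) and chr4:44393001-44393500 (-19.95) fell just short of that cut. The direction of this count thus depends on the cut, and the share over all windows was not counted. The largest difference was at chr8:120360001-120360500, 401 bp from the start of the predicted gene Gm46055. That window had 40%, 48.3% and 47.5% in WT and 94.2%, 64.1% and 100% in Chd8+/-, on 60 to 136 reads per library. It is named after its values were seen. The window that covers the Gm46055 start itself, next to it, had 48.8%, 58.9% and 62.3% in WT and 45.0%, 59.7% and 57.7% in Chd8+/-, with no such gap. The part that shallow reads have in these differences was not tested.

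The longest locus was a run of 13 adjoining windows at chr17:40153501-40160000, with 382 counted CpGs and 1149 to 3367 reads per CpG, a median of 2151 against 37.5 in all CpG-dense windows. It lies between the placed starts of Gabbr1 and Cenpq, and RefSeq lists 111 genes between them, among them Rn18s-rs5, which is related to the 18S ribosomal RNA. Whether the run is that gene could not be matched here. Averaged over the run, the WT samples had 34.6%, 27.6% and 37.4% and the Chd8+/- samples 38.9%, 43.5% and 32.6%, or 33.2% ± 5.02 and 38.3% ± 5.48 (SD, n = 3). WT 2 was the lowest sample in all 13 windows and Chd8+/- 2 the highest in all 13, so the samples kept this order along the whole run. Chd8+/- 3 lay below WT 1 and WT 3, so the groups overlapped. Without the run, the difference over the remaining windows was 1.66 points, and with each locus counted once it was 1.35.

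**Figure D5:**
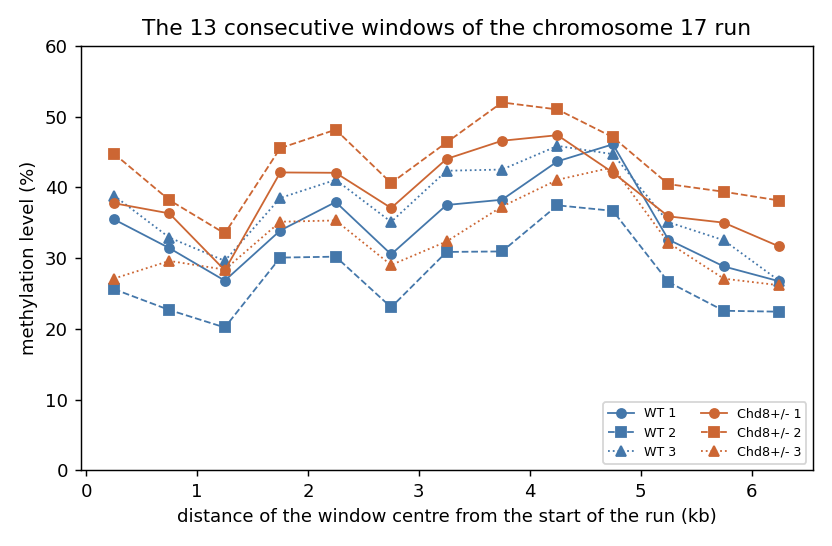
Methylation level (%) of each sample in the 13 windows of the chromosome 17 run against the distance of the window centre from the start of the run (kb). WT is in blue and Chd8+/- in orange, with WT 2 (squares, dashed) lowest and Chd8+/- 2 (squares, dashed) highest along the whole run.

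The remaining loci named for their number of windows were both on chromosome 7. At chr7:80525001-80526000 the WT samples had 52.0%, 52.3% and 55.0% in the first window and 49.3%, 49.9% and 53.4% in the second. The Chd8+/- samples had 73.7%, 58.2% and 35.3% in the first and 51.9%, 49.3% and 60.5% in the second. At chr7:105411501-105412000, beside the window near Taf10 named above, all 6 samples lay between 27.2% and 36.5%, a lower but steady level.

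Windows at the ends of the range show how sharp the choice was. Just inside 25% were chr19:47302001-47302500 (WT mean 25.3% ± 13.4), chr5:143239001-143239500 (25.3% ± 7.47) and the last window of the chromosome 17 run (25.3% ± 2.51), and just outside were chr2:29735501-29736000 (24.98% ± 13.1) and chr4:112836501-112837000 (24.9% ± 2.76; all SD, n = 3). Just inside 75% were chr11:97666001-97666500 (74.9% ± 14.4), chr17:91395501-91396000 (74.2% ± 12.6) and chr8:70784001-70784500 (74.1% ± 1.42), and just outside were chr12:108999501-109000000 (75.7% ± 2.90), chr13:45023001-45023500 (75.9% ± 3.67) and chr12:19754001-19754500 (76.1% ± 8.61; all SD, n = 3). The SDs of these windows exceeded their distance from the limits, so membership near the ends rests on the spread of single samples.

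Motifs were searched on both strands of the placed promoters, as a description. TGCCGC, the core bound by the imprint-keeping factor ZFP57, was in 6 of the 19 promoters over the 200 windows and in 3 of the 5 imprinted ones, against 24.6% of 6307 placed promoters over CpG-dense windows. CACGTG, the E-box, was in 7 of the 19 against 10.5%. TCCCGC, which E2F6 is known to bind at germline genes, was in 8 of the 19 against 44.9%. The Plagl1 and Hymai promoters overlap over most of their length and are counted as 2 of the 19. In the sequences printed above, Mcts2 and Plagl1 held both TGCCGC and CACGTG, Plagl1 and Ddx4 held TCCCGC, Ddx4 also held CACGTG, and Hormad2 held none of the motifs.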

How the data were processed

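The authors' table of a library lists CpG cytosines with their read count (coverage), at least 10 in each row, per the file headers, and the deposited shares read as cytosine and as thymine are in percent. Trim Galore 0.4.4, SAMtools 1.9, Bismark 0.20.0 and mm39 are given in the submitters' processing notes. Their settings and any removal of duplicate reads are not given in the sources used here, so counting errors cover counting only. Coverage times percent gave whole methylated reads within 0.02 for over 99.9% of cytosines.

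Strands were merged, and the autosomal CpGs with 10 or more reads in every sample numbered 534921. Levels are unweighted means over the counted CpGs of a window. Windows were tested in R 4.3.3 by the quasi-likelihood test of edgeR 4.0.16 (a coverage term per sample, genotype acting on the methylated share, Benjamini-Hochberg adjustment over 67181 windows) and with limma 3.58.1 on log2 ratios with 1 read added, both tested on simulated data. An adjusted p under 0.05 was called.

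The RefSeq tables follow GRCm38.p6, so 300-base promoter sequences were placed on the listed mm39 CpGs by spacing alone: 8529 with at least 8 matching CpGs, of which 99.9% of neighbouring pairs kept the reference order, then 2610 with at least 4 between placed neighbours. No conversion of coordinates was made.

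Windows named were the 10 loci with the most windows, those at listed imprinted or germline genes, the 3 smallest p in each direction, the 3 largest and smallest Chd8+/- SDs, and 3 on each side of the limits (1 just outside is not reported here). The windows, gene lists and tests were chosen with earlier results of these data known. Chromosomes X and Y and the conversion statistics were not used for levels.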

Additional observations from a re-analysis of the deposited data

How the results depend on the processing

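The count of 200 windows fell to 97 with at least 20 reads per CpG and to 95 with a density over 20, and lay between 151 and 216 under the other choices of window, level and limits. The mean difference of 1.89 points stayed positive under every alternative run, from 1.36 to 2.88 with a sample left out. It was 1.63 without the very deep windows and 3.53 when windows were chosen on WT 2 and 3 and set against WT 1. The 7 windows at 40 to 60% in all 6 samples became 3 with at least 20 reads, 4 with summed reads and 26 in a band of 35 to 65%, and 8 to 11 with a sample left out. No window of the 200 was called under any alternative, of which the minimum of 20 reads tested only 108 of them, and the lowest adjusted p was 0.730 (limma). Same-numbered samples were not taken as pairs. Their deviations over the 200 windows correlated at 0.207, 0.0903 and 0.151, against -0.179 to 0.0341 for other pairs. Each sample correlated best with its own number there. Over all windows tested the same-numbered values were 0.00507, 0.00176 and 0.00202, against -0.00516 to 0.0031 for other pairs, so no such pattern was seen. With the replicate block the edgeR count stayed 0 (lowest adjusted p 1.00). The mean of the 3 same-numbered differences equals the difference of 1.89 points by arithmetic, so it is no check of that value.

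The sign of the difference in points turned at several imprinted windows with a sample left out. The lowest and highest values were -11.0 and 19.3 at the second Mcts2 window, -8.05 and 15.6 at Nnat, -22.2 and 10.1 at chr7:143013501-143014000, -14.1 and 6.19 at Plagl1, -3.84 and 17.8, then -6.42 and 17.1 at the windows near Grb10, and -7.23 and 10.4 at Zrsr1. At Gnas they were -15.1 and 2.25 at chr2:174127001-174127500, -10.5 and 2.38 at chr2:174139501-174140000, -1.12 and 16.8 at chr2:174140501-174141000, and -6.68 and 5.90 at chr2:174170001-174170500. With summed reads it was 1.92 at the Gnas window chr2:174170001-174170500 and 1.62 at Plagl1, and the limma log2 difference was 0.15 and 0.20. Reads of about 40 per CpG limit single windows, since counting alone gives an SD of several points. The cause of these changes was not tested.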

Other observations

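A group of very deep windows lay outside the chromosome 17 run. At chr11:108902501-108903000, with 28708 to 56013 reads per library, the WT samples had 40.3%, 36.2% and 42.8% and the Chd8+/- samples 47.5%, 51.7% and 34.8%. At chr5:146198001-146198500 they had 39.8%, 35.7% and 42.5% and 47.8%, 49.3% and 29.7%. In both, as in the run, Chd8+/- 2 was the highest sample, but Chd8+/- 3 and not WT 2 was the lowest. The window chr16:57211501-57212000 had 61.3%, 61.8% and 60.4% in WT, the smallest WT SD of the 200 windows (0.709 points), and 66.7%, 65.1% and 61.0% in Chd8+/-. In the windows that were not very deep no sample held such a place: WT 2 was lowest in 24 and Chd8+/- 2 highest in 38, while Chd8+/- 1 was highest in 37 and lowest in 37.

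The levels read on the strands of a window often differed. In the 143 windows with at least 60 reads on both strands, the gap between the strand levels had a median of 11.9 points and was over 20 points in 34, with a largest gap of 51.2. Whether both strands covered the same CpGs was not tested, and the CpGs of a window were often unequal. The gap therefore does not show that any CpG was methylated differently on its strands.

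Parp12, an ADP-ribosyltransferase, had a promoter that reached into one of the 200 windows and is named after its values were seen. Its window had 48.7%, 50.1% and 47.2% in WT and 38.5%, 30.8% and 47.4% in Chd8+/-. The WT samples were close together near 50%, and Chd8+/- 3 lay among them.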
